A study of Mus musculus with 4 samples.

Results

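The insulin-like growth factor (IGF) system comprises the ligands Igf1 and Igf2, the receptors Igf1r and Igf2r, and secreted binding proteins. It was described here in mouse gastrocnemius muscle through 9 genes, the ligands, the receptors, and Igfbp3, Igfbp4, Igfbp5, Igfbp6, and Igfbp7. The members were taken by gene name from the 22252 names in the deposited tables. All 9 had counts above 0 in the 4 libraries, as did 14206 names in all, which are the features compared below.

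The study examined how the glucocorticoid receptor (GR, encoded by Nr3c1) of skeletal muscle acts in obesity, and the libraries analyzed here are from its leptin-deficient ob/ob model. The 4 groups were lean GRf/f, lean GRmKO, ob/ob GRf/f, and ob/ob GRmKO mice, all 7-week-old males on the C57BL/6J background. Every group carried floxed GR alleles on both chromosomes. The GRmKO groups also carried Cre under the Acta1 promoter, which is active in myofibers and from development on, so GR of the other cells in the tissue is left in place. The ob/ob groups lacked functional leptin (Lep), and the lean groups had wild-type Lep. Each library was made from the pooled RNA of 3 mice, with 1 library per group. Differences between groups therefore could not be held against the variation between mice, no test was made, and no P value is given.

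IGF-1 and IGF-2 act mainly through the IGF-1 receptor, a tyrosine kinase that feeds the insulin receptor substrates and the PI3K-Akt pathway and promotes muscle growth. The IGF-2 receptor carries no kinase and takes IGF-2 to lysosomes. Binding proteins hold the ligands outside the cell and can lower or prolong their action, and growth hormone is a main inducer of Igf1.

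The libraries held from 19897754 to 20959781 expected counts, of which the 9 genes took from 0.163% to 0.197%. Levels are given as CPM, the count of a gene over all counts of its library, scaled to a library of 1e6 counts. The intervals are 95% Wilson intervals for levels and 95% exact conditional binomial intervals for log2 ratios between libraries. They cover counting error only. As a check of the labels, Nr3c1 was at 125 CPM in lean GRf/f, 67.0 in lean GRmKO, 102 in ob/ob GRf/f, and 39.1 in ob/ob GRmKO mice. Fkbp5, a classical GR target, was at 88.8, 22.8, 106, and 26.1 CPM in the same order. Both were lower in each GRmKO library than in its GRf/f counterpart. The 10 myofiber markers were above 0 in every library and summed to between 116544 and 136816 CPM, so the label of the tissue matched its markers.

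In GENCODE annotation on GRCm38, Igf1 (ENSMUSG00000020053.18) lies at chr10:87858265-87937042 on the plus strand, and Igf2 (ENSMUSG00000048583.16) at chr7:142650766-142666816 on the minus strand. Igf1r lies at chr7:67952827-68233668 and Igf2r at chr17:12682406-12769664. Igfbp3 and Igfbp4 are on chromosome 11, at chr11:7206086-7213923 and chr11:99041244-99054392. Igfbp5 lies at chr1:72857932-72874884, Igfbp6 at chr15:102144362-102149511, and Igfbp7 at chr5:77349240-77408041. Igf2 overlaps Gm49394, listed with at most 6.74 counts in a library. Igfbp7 overlaps Polr2b on the other strand, and since the counting is not stated to use strand, the reads of that overlap cannot be told apart. Polr2b had between 1149 and 1212 counts in the 4 libraries.

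RefSeq promoter windows on GRCm38.p6 were found for 9 of 9 members, and 1 window was used per gene. For Igf2, which has 4, it was the one nearest to the start of the deposited transcript. Printed are those of Igf2, the ligand that rose with obesity, and of Igfbp5, the binding protein that rose without muscle GR in ob/ob mice. Those of Igfbp4 and Igfbp6, 2 of 3 binding proteins that fell past 1.5-fold with obesity without muscle GR, are printed too. The window of Igfbp7, the other of these 3, is not printed and held none of the motifs searched. Each printed window shows the 250 bases before the start, read 5′ to 3′ on the strand of the gene. Capitals mark a TATA box found by its letters.
Igf2: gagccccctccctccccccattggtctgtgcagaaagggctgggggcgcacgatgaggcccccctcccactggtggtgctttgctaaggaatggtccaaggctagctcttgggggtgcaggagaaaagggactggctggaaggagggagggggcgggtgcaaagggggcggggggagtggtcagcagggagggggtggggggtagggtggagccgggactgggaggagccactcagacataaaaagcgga
Igfbp5: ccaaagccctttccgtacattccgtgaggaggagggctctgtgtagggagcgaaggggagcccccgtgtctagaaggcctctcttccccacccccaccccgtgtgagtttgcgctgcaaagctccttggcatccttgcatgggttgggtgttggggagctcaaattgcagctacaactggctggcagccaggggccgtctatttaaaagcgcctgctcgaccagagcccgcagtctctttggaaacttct
Igfbp4: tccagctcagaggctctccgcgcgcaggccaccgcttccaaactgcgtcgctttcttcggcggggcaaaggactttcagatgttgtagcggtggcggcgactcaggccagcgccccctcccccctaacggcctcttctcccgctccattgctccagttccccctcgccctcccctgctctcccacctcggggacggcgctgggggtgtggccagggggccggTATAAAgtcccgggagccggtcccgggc
Igfbp6: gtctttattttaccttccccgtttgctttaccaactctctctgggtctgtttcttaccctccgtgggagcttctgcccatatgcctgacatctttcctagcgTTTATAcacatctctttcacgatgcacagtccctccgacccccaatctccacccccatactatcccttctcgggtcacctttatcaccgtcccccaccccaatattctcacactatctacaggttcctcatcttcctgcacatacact
The windows are chr7:142657497-142657746 (minus), chr1:72874866-72875115 (minus), chr11:99040994-99041243 (plus), and chr15:102143936-102144185 (plus), respectively. They end 0, 19, 0, and 176 bases from the start of the deposited transcript. GC content was 66%, 58.8%, 69.2%, and 49.6%. Motifs were searched by their letters on both strands, as the GR half-site AGAACA, the palindrome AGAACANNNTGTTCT, which contains that half-site, the FoxO core GTAAACA, the E-box CAGCTG of myogenic factors, the TATA box TATAAA, and the STAT5 site TTCNNNGAA. Igfbp4 held TATAAA 28 bases before its start, Igfbp6 held TTTATA, the same box on the other strand, 148 bases before, and Igf1 held CAGCTG 157 bases before. The start used for Igf1 lies 2043 bases past that of the deposited transcript, and the start used for Igf1r 570 bases before it. Of all 32851 windows, 12.4% held the TATA box and 13% the E-box. None of these 9 windows held the half-site, the FoxO core, or the STAT5 site, which 16.1%, 3.17%, and 7.02% of all windows held, and 0.00913% held the palindrome. A match describes letters in this window only.

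Levels between genes were compared per length, as CPM per kb of the longest coding transcript. The binding proteins stood above the other members, with Igfbp7 at between 150 and 277 CPM per kb over the 4 libraries, Igfbp5 at between 130 and 217, and Igfbp6 at between 67.2 and 146. Their ranges overlapped from each neighbor to the next. Igfbp4 followed with 35.6 to 67.0 CPM per kb, and Igfbp3 with 24.8 to 32.6. Igf2, with 6.47 to 11.5 CPM per kb, Igf2r, with 8.91 to 10.2, and Igf1, with 6.13 to 10.1, overlapped each other. Igf1r was the lowest member with 2.01 to 2.36. Igfbp1 and Igfbp2, which are no members, were near 0, Igfbp1 with at most 1.99 counts in a library and Igfbp2 at between 0.125 and 0.502 CPM.

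**Figure D1:**
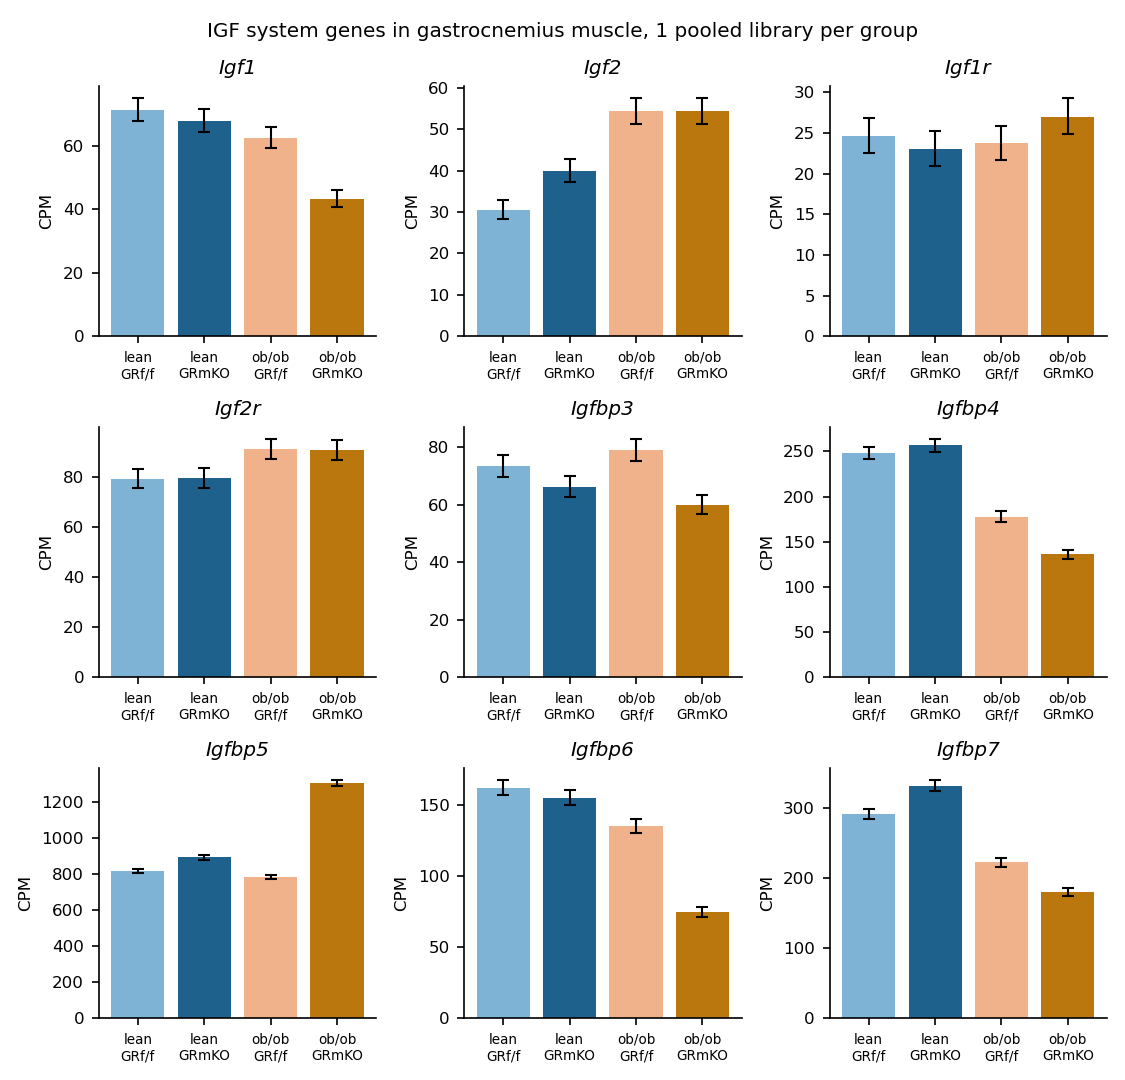
CPM (y axis, linear from 0, own scale in each panel) of the 9 genes in the lean GRf/f, lean GRmKO, ob/ob GRf/f, and ob/ob GRmKO libraries. Bars are single pooled libraries and error bars are 95% Wilson intervals for counting error. Igfbp5 stands highest in ob/ob GRmKO at 1304 CPM, whereas Igf1, Igfbp4, Igfbp6, and Igfbp7 stand lowest there. Igfbp3 is also lowest there, with an interval that overlaps that of lean GRmKO.

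Igf2, the imprinted ligand known for fetal growth and for muscle differentiation, was at 30.5 CPM (28.3 to 33.0) in lean GRf/f mice. It was at 39.8 CPM (37.2 to 42.7) in lean GRmKO mice and at 54.3 CPM (51.2 to 57.5) in both ob/ob GRf/f and ob/ob GRmKO mice. Both ob/ob libraries were above both lean libraries, and neither interval of an ob/ob library overlapped that of a lean library. In GRf/f mice Igf2 rose 1.78-fold with obesity, a log2 ratio of 0.83 (0.69 to 0.97). In GRmKO mice the ratio was 1.36 (log2 0.45, 0.31 to 0.58). Between genotypes it was 1.30-fold higher in lean GRmKO mice (log2 0.38, 0.23 to 0.54), and in the ob/ob pair the log2 ratio was -0.00088 (-0.12 to 0.12), with a sign that flipped with the scaling.

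Igf1, the main mediator of growth hormone action, was at 71.2 CPM (67.7 to 75.0) in lean GRf/f mice and 67.8 CPM (64.2 to 71.5) in lean GRmKO mice. It was at 62.5 CPM (59.2 to 66.0) in ob/ob GRf/f mice and 43.2 CPM (40.5 to 46.2) in ob/ob GRmKO mice. The ob/ob GRmKO library was the low one, and the intervals of the lean libraries overlapped. Without muscle GR, Igf1 fell with obesity to a ratio of 0.638 (log2 -0.65, -0.77 to -0.53), past 1.5-fold only in CPM among 5 scalings tried. With muscle GR the log2 ratio was -0.19 (-0.30 to -0.08). The ratio of ob/ob GRmKO to ob/ob GRf/f mice was 0.692 (log2 -0.53, -0.66 to -0.41), against 0.951 in lean mice (log2 -0.07, -0.18 to 0.03).

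The ratio of the ligands differed between all 4 libraries. There were 0.429 counts of Igf2 per count of Igf1 in lean GRf/f mice (0.391 to 0.471), 0.588 in lean GRmKO mice (0.539 to 0.642), 0.869 in ob/ob GRf/f mice (0.802 to 0.940), and 1.26 in ob/ob GRmKO mice (1.15 to 1.37). None of the 4 intervals overlapped another. This count ratio does not depend on the scaling of the libraries, and it is not a ratio of molecules. Per kb of the longest coding transcript, Igf1 made up 61.0%, 53.2%, 43.5%, and 34.8% of the ligands in the same order. With the lengths of the deposited transcripts the shares were 55.1%, 47.2%, 37.7%, and 29.5%. The summed level of both ligands varied less, between 16.6 and 20.4 CPM per kb.

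**Figure D2:**
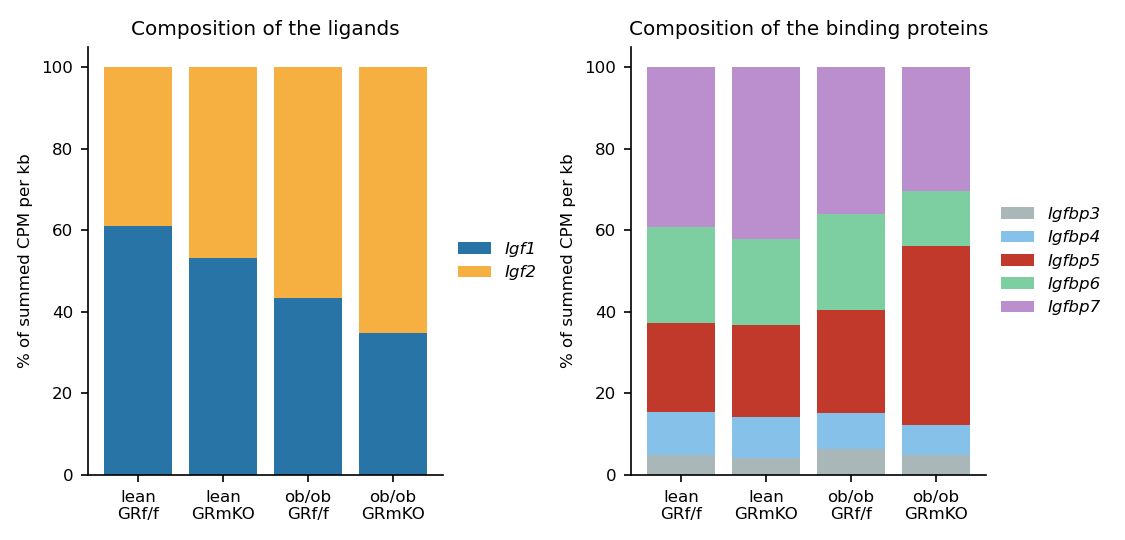
Shares (% of summed CPM per kb, y axis) of Igf1 and Igf2 among the ligands (left) and of the 5 binding proteins (right) in each library (x axis); lengths are those of the longest coding transcripts and each bar is 1 pooled library. Igf1 goes from 61.0% in lean GRf/f to 34.8% in ob/ob GRmKO, and Igfbp5 from 21.9% to 43.9%.

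Igf1r, which encodes the signaling receptor, stayed within 1.5-fold in the 4 comparisons. It was at 24.6, 23.0, 23.7, and 27.0 CPM in lean GRf/f, lean GRmKO, ob/ob GRf/f, and ob/ob GRmKO mice and the intervals of every pair of libraries overlapped. The log2 ratio with obesity was 0.23 (0.05 to 0.41) in GRmKO mice and -0.05 (-0.23 to 0.13) in GRf/f mice, where its sign flipped with the scaling. Igf2r, the receptor that clears IGF-2, was at 79.2 and 79.5 CPM in the lean libraries and at 90.9 and 90.5 CPM in the ob/ob libraries. The genotypes lay within counting error of each other, with signs of the log2 ratio that flipped with the scaling. The obesity log2 ratios of Igf2r were 0.20 (0.10 to 0.30) in GRf/f and 0.19 (0.09 to 0.28) in GRmKO mice, under 1.5-fold. Per kb, Igf2r stood at between 4.14 and 4.93 times the level of Igf1r.

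Igfbp5, a binding protein that muscle cells secrete, was at 814 CPM (802 to 827) in lean GRf/f, 892 CPM (879 to 905) in lean GRmKO, and 783 CPM (771 to 795) in ob/ob GRf/f mice. In ob/ob GRmKO mice it was at 1304 CPM (1289 to 1320), well apart from the other 3 libraries. With loss of muscle GR in ob/ob mice it rose 1.67-fold (log2 0.74, 0.71 to 0.76). In lean mice the ratio was 1.09 (log2 0.13, 0.10 to 0.16). With obesity the log2 ratio was -0.06 (-0.09 to -0.03) in GRf/f mice, a sign that flipped with the scaling, and 0.55 (0.52 to 0.58) in GRmKO mice. The latter lies just inside 1.5-fold (a log2 ratio of 0.58) and passed it in 4 of 5 scalings.

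Igfbp6, which binds IGF-2 in preference to IGF-1, was at 162 CPM (157 to 168) in lean GRf/f, 155 CPM (150 to 161) in lean GRmKO, 135 CPM (130 to 140) in ob/ob GRf/f, and 74.7 CPM (71.1 to 78.5) in ob/ob GRmKO mice. It was the member with the largest ratio between libraries, 2.17-fold from the lowest to the highest. In ob/ob mice it fell with loss of muscle GR to a ratio of 0.552 (log2 -0.86, -0.95 to -0.77), against 0.956 in lean mice. With obesity it fell in GRmKO mice to a ratio of 0.481 (log2 -1.06, -1.15 to -0.97), past 2-fold, and in GRf/f mice the ratio was 0.833 (log2 -0.26, -0.34 to -0.19).

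Igfbp4, a binding protein cut by the protease pregnancy-associated plasma protein A, was at 248 and 257 CPM in the lean libraries (GRf/f and GRmKO), 178 CPM in ob/ob GRf/f, and 136 CPM in ob/ob GRmKO mice. Igfbp7, a relative that binds IGFs weakly and is known from vessel walls, was at 292, 332, 223, and 180 CPM in the same order. Both were highest in lean GRmKO mice and lowest in ob/ob GRmKO mice, but for Igfbp4 the intervals of the lean libraries overlapped. With obesity they fell in GRmKO mice, Igfbp4 to a ratio of 0.531 (log2 -0.91, -0.98 to -0.85) and Igfbp7 to 0.542 (log2 -0.88, -0.94 to -0.83). In GRf/f mice the log2 ratios were -0.48 (-0.54 to -0.42) and -0.39 (-0.44 to -0.33), within 1.5-fold. Loss of muscle GR in ob/ob mice gave -0.38 (-0.45 to -0.31) for Igfbp4 and -0.31 (-0.37 to -0.25) for Igfbp7, and in lean mice 0.05 and 0.19, of which that of Igfbp4 flipped sign with the scaling.

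Igfbp3, the carrier of most circulating IGF, was at 73.4, 66.3, 79.0, and 60.0 CPM in lean GRf/f, lean GRmKO, ob/ob GRf/f, and ob/ob GRmKO mice. Each GRmKO library was below its GRf/f counterpart, with log2 ratios of -0.15 (-0.25 to -0.04) in lean and -0.40 (-0.50 to -0.29) in ob/ob mice. No comparison reached 1.5-fold.

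The mixture of binding proteins in ob/ob GRmKO mice stood apart from that of the other libraries. Igfbp5 took 51.2% of the counts of the 5 genes in lean GRf/f mice (50.7 to 51.8), 52.4% in lean GRmKO mice (51.8 to 52.9), 56.0% in ob/ob GRf/f mice (55.4 to 56.6), and 74.3% in ob/ob GRmKO mice (73.9 to 74.7). Per kb, Igfbp5 ranked 3 among the 5 in lean GRf/f mice, 2 in lean GRmKO and ob/ob GRf/f mice, and 1 in ob/ob GRmKO mice, with 21.9%, 22.5%, 25.2%, and 43.9% of the sum. The share of Igfbp6 was 23.6%, 21.2%, 23.6%, and 13.6%, and that of Igfbp7 39.2%, 42.0%, 35.9%, and 30.3%. The summed CPM of the 5 genes was 1590, 1702, 1398, and 1755 in the same order. In ob/ob GRmKO mice this sum and the median of the 5 log2 ratios therefore differed in sign, with 0.04 for the sum and -0.88 for the median against lean GRmKO mice, and with 0.33 and -0.38 against ob/ob GRf/f mice.

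The members were then counted in each comparison by a change of at least 1.5-fold in CPM, beside the same count over all 14206 features. In GRf/f mice, obesity changed 1 of 9 members (Igf2, higher), where 24.5% of all features passed, 7.99% higher and 16.5% lower. In GRmKO mice, obesity changed 4 of 9, all lower (Igf1, Igfbp4, Igfbp6, and Igfbp7), where 31.8% of all features passed, 7.81% higher and 23.9% lower. Loss of muscle GR changed 0 of 9 in lean mice, where 17.2% passed, 9.45% higher and 7.76% lower. In ob/ob mice it changed 2 of 9 (Igfbp5 higher, Igfbp6 lower), where 20.8% passed, 8.6% higher and 12.2% lower. Neighboring comparisons share libraries, so these counts are not independent of each other. At 2-fold, 0, 1 (Igfbp6), 0, and 0 members passed in the 4 comparisons, where 10.4%, 14.2%, 7.69%, and 9.04% of all features did.

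Many of all features have few counts, whereas the members have at least 457 in a library. Among the 4647 features with a mean of at least 500 counts, a limit chosen after the data had been seen, 10.8%, 18.3%, 3.68%, and 7.38% passed in the 4 comparisons in the same order. The median log2 ratio of the members was -0.06 with obesity in GRf/f mice and -0.14 in GRmKO mice, against medians of -0.11 and -0.21 over all features. For loss of muscle GR it was 0.01 in lean and -0.31 in ob/ob mice, against 0.05 and -0.04. Relative to the median feature, the obesity log2 ratios of Igf2 were 0.94 in GRf/f and 0.65 in GRmKO mice, that of Igf1 in GRmKO mice was -0.44, and that of Igfbp5 in GRmKO mice was 0.75. With scalings that remove most of this shift, obesity in GRmKO mice changed 2 members higher (Igf2 and Igfbp5) and 3 lower (Igfbp4, Igfbp6, and Igfbp7).

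**Figure D3:**
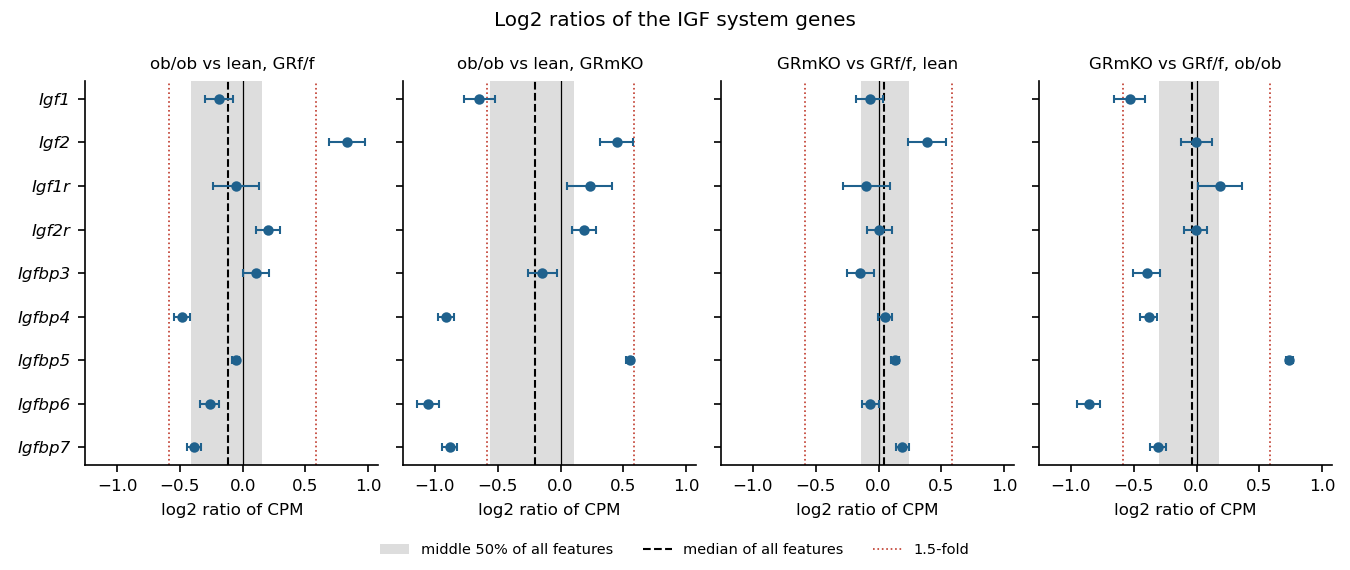
Log2 ratios of CPM (x axis) of the 9 genes in the 4 comparisons, with 95% counting intervals, the median of all 14206 features (dashed), the range of their middle 50% (gray), and 1.5-fold (dotted). Igf2 alone lies past 1.5-fold with obesity in GRf/f mice, 4 genes lie past it on the lower side with obesity in GRmKO mice, and the points for loss of muscle GR in lean mice lie between -0.15 and 0.38; signs of log2 ratios near 0 flip with the scaling for 7 of 36 points.

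The obesity ratios of GRf/f and GRmKO mice were also set against each other as the difference of the log2 ratios, which equals that between the ratios for loss of muscle GR in ob/ob and lean mice. Its 95% intervals are normal approximations on the log scale, again for counting error only, and it was not tested, since each term rests on single libraries. The difference was largest for Igfbp6 at -0.79 (-0.91 to -0.68) and for Igfbp5 at 0.61 (0.56 to 0.65). It was -0.50 (-0.58 to -0.42) for Igfbp7, -0.46 (-0.62 to -0.30) for Igf1, -0.43 (-0.52 to -0.34) for Igfbp4, -0.38 (-0.58 to -0.19) for Igf2, and -0.25 (-0.40 to -0.10) for Igfbp3. Of the receptors, Igf2r showed a difference of -0.01 (-0.15 to 0.12) and Igf1r one of 0.28 (0.03 to 0.54). In CPM, Igf1r and Igfbp5 were the 2 members with a positive difference, and relative to the median feature Igf2r joined them with 0.08.

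A list of 45 further genes of the pathway was followed, of which 41 had counts above 0 in all libraries. With obesity, 3 rose and 8 fell past 1.5-fold in GRf/f mice, and 2 rose and 7 fell in GRmKO mice. With loss of muscle GR, 5 rose and 5 fell in lean mice, and 7 rose and 4 fell in ob/ob mice. In the same order, 24.5%, 31.8%, 17.2%, and 20.8% of all features passed in either direction, and the counts of the list are not read as particular to it. The medians were -0.12, -0.13, -0.04, and -0.07 on the log2 scale. Named below are those past 1.5-fold in a comparison where either library had 50 or more counts, beside Ghr, Insr, Irs1, and Irs2, which are always given.

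Of the 8 genes of the growth hormone axis, 3 fell with obesity in GRf/f mice and 3 with loss of muscle GR in lean mice, in both cases Stat5a, Socs2, and Cish. These comparisons share the lean GRf/f library as their base, and it was the highest of the 4 for each of these genes. Cish, a STAT5-induced inhibitor of cytokine signaling, was at 50.4 CPM (47.5 to 53.6) in lean GRf/f mice and at 8.09, 6.20, and 4.38 CPM in lean GRmKO, ob/ob GRf/f, and ob/ob GRmKO mice. Socs2, the feedback inhibitor of the growth hormone receptor, was at 21.0, 11.9, 4.47, and 5.71 CPM in the same order. Both were highest in lean GRf/f mice, and the obesity log2 ratios were -3.02 for Cish and -2.23 for Socs2 in GRf/f mice and -0.88 and -1.06 in GRmKO mice. Stat5a, a transcription factor of the axis, was at 12.9 CPM in lean GRf/f and 8.43 in lean GRmKO mice, and at 5.88 CPM in ob/ob GRf/f mice, the lowest of the 4. With obesity in GRmKO mice 2 fell, Socs2 and Cish. With loss of muscle GR in ob/ob mice 2 rose, Stat5a (log2 0.77) and Socs3, another feedback inhibitor (log2 0.69). Ghr, the growth hormone receptor itself, was at 130, 115, 146, and 133 CPM and stayed within 1.5-fold in the 4 comparisons, with log2 ratios between -0.18 and 0.21.

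Of 21 genes of receptor signaling, 1 rose and 2 fell with obesity in GRf/f mice, and 0 rose and 1 fell in GRmKO mice. Loss of muscle GR gave 1 higher and 0 lower in lean mice, and 3 higher and 2 lower in ob/ob mice. Irs1, the substrate that passes the signal of the IGF-1 and insulin receptors to PI3K, was at 53.9, 59.4, 41.6, and 74.7 CPM in lean GRf/f, lean GRmKO, ob/ob GRf/f, and ob/ob GRmKO mice, and it rose without muscle GR in ob/ob mice (log2 0.85). Shc1, the adaptor toward Ras, rose in the same comparison (log2 1.11) from 13.5 to 29.2 CPM, and Grb14, an adaptor that inhibits the insulin receptor, from 15.6 to 26.9 CPM (log2 0.78). Pik3r1, the regulatory subunit of PI3K, fell from 60.7 to 33.9 CPM (log2 -0.84). The ob/ob GRmKO library was the highest for Irs1 and the lowest for Pik3r1, with intervals apart from those of the other libraries. For Shc1 and Grb14 its interval overlapped that of lean GRmKO mice, at 28.2 and 23.5 CPM. Irs2, the other substrate, fell with obesity in GRf/f mice from 62.0 to 36.4 CPM (log2 -0.77), and in GRmKO mice it was at 49.4 and 42.0 CPM (log2 -0.23). Shc1 also fell with obesity in GRf/f mice (log2 -0.60), from 20.6 CPM. Insr, the insulin receptor, was at 60.8, 51.2, 74.4, and 69.9 CPM and within 1.5-fold throughout, as were its log2 ratios between -0.25 and 0.45.

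**Figure D4:**
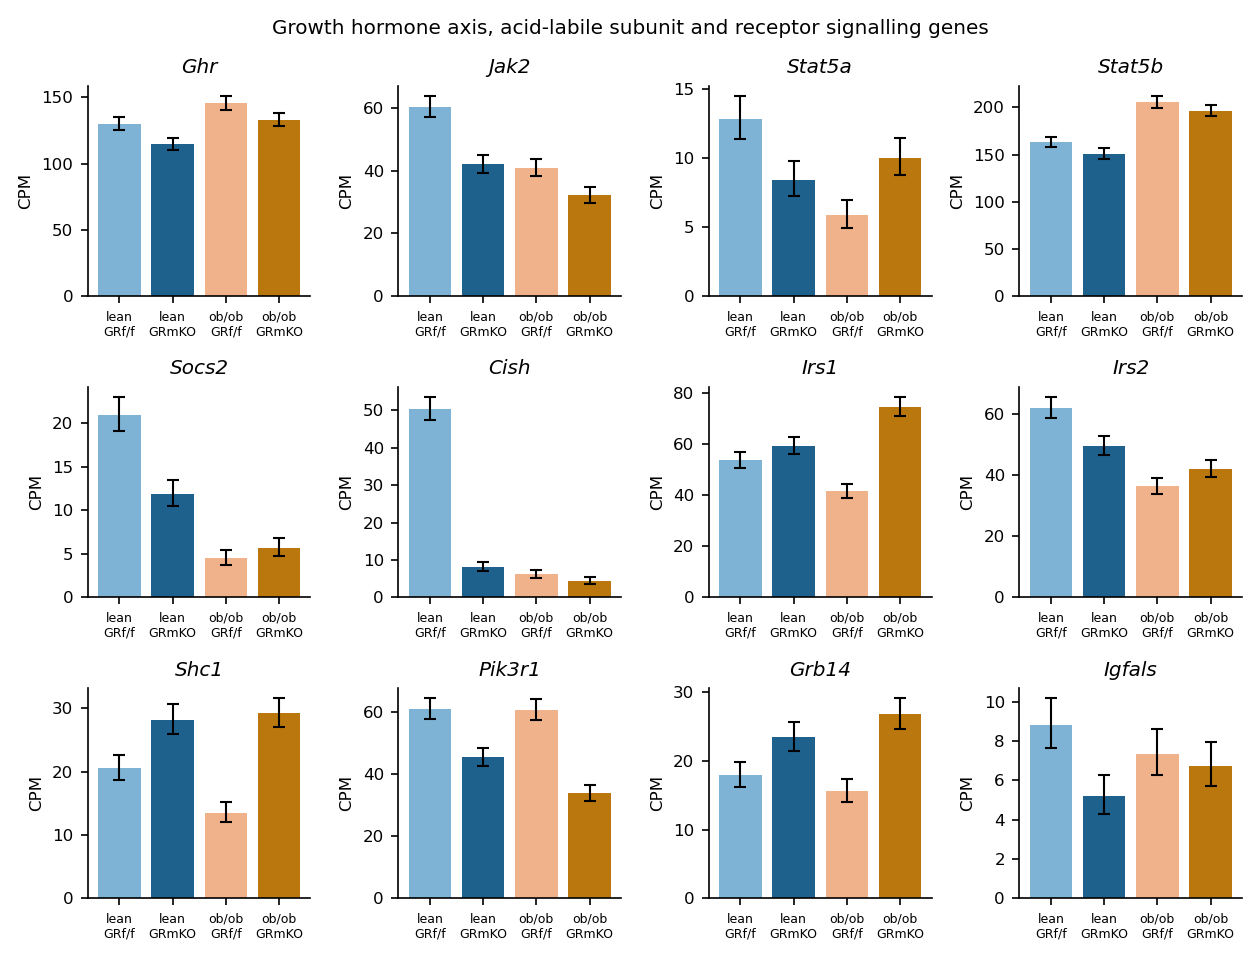
CPM (y axis, linear from 0, own scale in each panel) of 12 genes of the growth hormone axis, the acid-labile subunit, and receptor signaling in the 4 libraries; bars are single pooled libraries and error bars 95% Wilson intervals for counting error. Cish stands at 50.4 CPM in lean GRf/f and at 8.09 or less in the other 3 libraries, whereas Irs1 is highest in ob/ob GRmKO at 74.7 CPM and Shc1 stands at 29.2 CPM there and 28.2 CPM in lean GRmKO.

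Of 10 other binding partners and proteases, 2 rose and 1 fell with obesity in GRf/f mice and 2 rose and 2 fell in GRmKO mice. With loss of muscle GR, 3 rose and 2 fell in lean mice, and 1 rose and 1 fell in ob/ob mice. These counts include Plg in all 4 comparisons and Igfbp2 in 3, both named after their values were seen, with at most 0.619 CPM in a library and intervals that included 0. Igfals, the acid-labile subunit that joins IGF and Igfbp3 in blood, was at 8.83, 5.18, 7.36, and 6.72 CPM and fell with loss of muscle GR in lean mice (log2 -0.77). Stc2, an inhibitor of the protease that cuts Igfbp4, was at 3.67, 5.69, 7.15, and 9.41 CPM, with obesity log2 ratios of 0.96 in GRf/f and 0.73 in GRmKO mice and 0.63 for loss of muscle GR in lean mice. Its paralog Stc1 was highest in lean GRf/f mice at 3.24 CPM and at between 1.56 and 2.14 CPM in the others. Adamts5, an extracellular protease, fell with obesity in GRmKO mice from 66.8 to 36.0 CPM (log2 -0.89). Of 2 mRNA-binding proteins of Igf2 with counts in all libraries, Igf2bp2 was at 1.81, 2.97, 1.06, and 1.93 CPM, on between 22.1 and 59.1 counts. It fell with obesity in GRf/f (log2 -0.77) and GRmKO mice (log2 -0.62), and it rose with loss of muscle GR in lean (log2 0.72) and ob/ob mice (log2 0.87).

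Several members are known from cells between the fibers as well as from fibers, and Cre deleted GR in the fibers alone. In a bulk library, fewer cells of a type and less RNA per cell cannot be told apart. Markers of other cell types were therefore read beside the members, with every marker above 0 in all libraries except the Schwann cell marker Mag, which was at 0 in ob/ob GRmKO mice. With obesity in GRmKO mice, where Igfbp4, Igfbp6, Igfbp7, and Igf1 fell, 10 of 10 endothelial, 8 of 8 macrophage, and 7 of 10 fibroblast markers also fell past 1.5-fold, with medians of -0.71, -1.42, and -0.87 on the log2 scale. With obesity in GRf/f mice, 2 of 10, 4 of 8, and 2 of 10 did, with medians of -0.37, -0.63, and -0.11. Fibroblast markers also rose past 1.5-fold, 2 of 10 with obesity in GRf/f and 1 of 10 in GRmKO mice. Over all features, 16.5% fell past it with obesity in GRf/f and 23.9% in GRmKO mice. With obesity, 1 of 8 adipocyte markers rose past it in each genotype, on a list that includes Lep, the gene altered in ob/ob mice. With obesity in GRmKO mice, 6 of 6 erythroid and 3 of 8 adipocyte markers fell past it. Of pericyte and smooth muscle markers 1 of 9 did, of satellite cell markers 1 of 6, and of Schwann cell markers 0 of 5. The endothelial log2 ratios there lay between -1.07 and -0.65, near the limit. Marker counts are in CPM and were not repeated on other scalings.

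The endothelial markers summed to 829, 937, 628, and 567 CPM in lean GRf/f, lean GRmKO, ob/ob GRf/f, and ob/ob GRmKO mice, and the macrophage markers to 345, 411, 230, and 153 CPM. Both sums were in the order seen for Igfbp4 and Igfbp7, although for Igfbp4 the lean libraries lay within counting error of each other. The pericyte and smooth muscle markers had this order too, with sums of 1491, 1551, 1280, and 1136 CPM. The fibroblast markers summed to 5840, 6342, 10914, and 5988 CPM, and the tendon cell markers to 925, 772, 1782, and 979 CPM, both highest in ob/ob GRf/f mice. With obesity in GRf/f mice, however, the fibroblast sum and median differed in sign, with log2 ratios of 0.90 and -0.11. There, 5 of 10 fibroblast markers were lower and 2 of 10 rose past 1.5-fold, so the sum does not describe the list as a whole. With loss of muscle GR in ob/ob mice, where Igfbp6 fell, 10 of 10 fibroblast markers had lower values (4 past 1.5-fold) and 4 of 6 tendon cell markers fell. Lower values were also seen for 10 of 10 endothelial, 8 of 9 pericyte and smooth muscle, and 7 of 8 macrophage markers. Of these, 4 macrophage markers fell past 1.5-fold, and 1 of 8 rose past it. Over all features in that comparison, 44.1% were higher and 12.2% fell past 1.5-fold. With obesity in GRf/f mice, where Igf2 rose, 6 of 6 tendon cell markers and 9 of 9 slow fiber markers rose. With obesity in GRmKO mice, where Igf2 did not pass 1.5-fold in CPM, 9 of 9 slow fiber and 1 of 6 tendon cell markers rose. Over all features, 7.99% rose past 1.5-fold with obesity in GRf/f and 7.81% in GRmKO mice. In ob/ob GRmKO mice, where Igfbp5 was highest, the slow fiber markers summed to 1657 CPM, against 592, 734, and 1239 CPM in the other libraries. With obesity in GRf/f mice, that sum went from 592 to 1239 CPM, whereas Igfbp5 went from 814 to 783 CPM. Satellite cell markers summed to between 81.1 and 91.0 CPM, and Schwann cell markers to between 482 and 669. Adipocyte markers summed to 1077, 697, 633, and 397 CPM. With loss of muscle GR, 7 of 8 fell in lean mice, where the log2 ratio of Igfbp6 was -0.06. In ob/ob mice, where Igfbp6 fell, 5 of 8 did. Over all features, 7.76% fell past 1.5-fold with loss of muscle GR in lean and 12.2% in ob/ob mice. Erythroid markers summed to 2229, 2127, 970, and 872 CPM, and 6 of 6 fell with obesity in each genotype. The part of these differences in the results for the members was not tested.

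**Figure D5:**
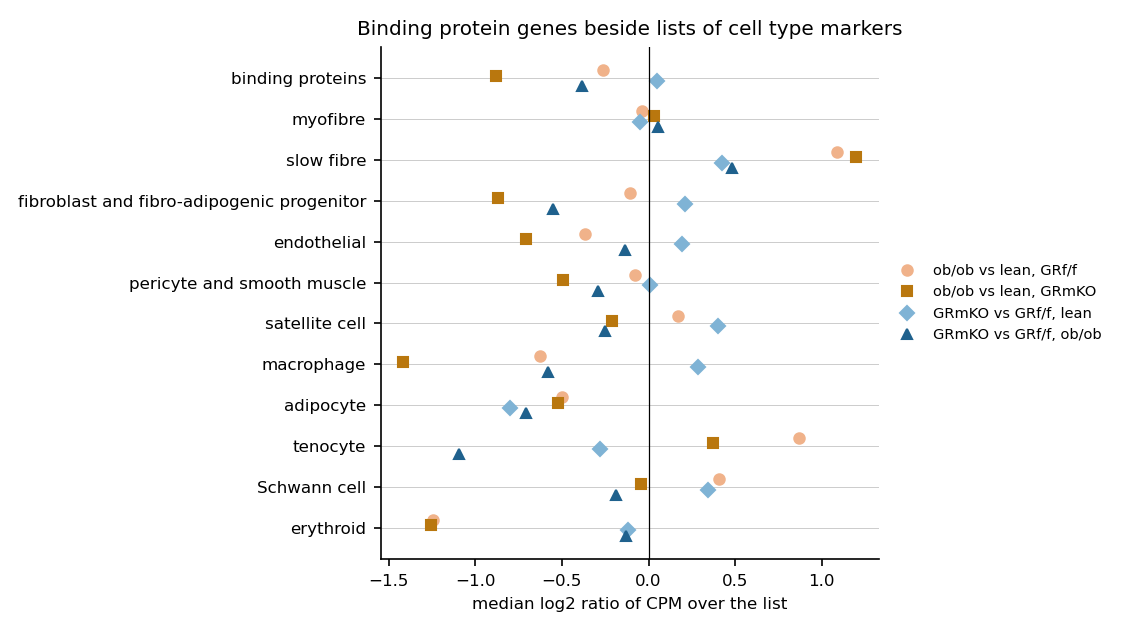
Median log2 ratio of CPM (x axis) of the 5 binding protein genes and of each list of cell type markers (y axis) in the 4 comparisons (symbols). With obesity in GRmKO mice (squares) the medians were -0.88 for the binding proteins, -0.71 for endothelial, -0.87 for fibroblast, and -1.42 for macrophage markers; on other scalings the points of a comparison shift together.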

How the data were processed

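The members, the pathway list, and the marker lists were chosen with earlier results of these data known. From 100-bp read pairs, the authors estimated transcript abundance with Salmon 1.2.1 and combined it per gene by tximport in R 3.5.0. What they deposited is an expected count for each of 22252 gene names, without any scaling across libraries, and their processing notes name mm10. The counts were derived from abundance with the lengthScaledTPM option of tximport. Igf1 has 8 and Igf2 has 7 coding transcripts in the annotation, and their isoforms were not compared here. All 22252 deposited transcript IDs were found in GENCODE on GRCm38, 21684 under the same name.

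Counts were scaled to CPM over the whole library (19897754 to 20959781 counts, where 3 counts equal 0.143 to 0.151 CPM). Features with counts above 0 in the 4 libraries were compared, and a change of at least 1.5-fold was counted. Rounded counts gave the intervals (scipy 1.17.1, Python 3.11.15, numpy 2.4.6, pandas 2.3.3, matplotlib 3.10.9). The interval and ratio calculations were tested on simulated data. With 1 library per group no P value is given.

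Named were all 9 members, the genes of the pathway list past 1.5-fold where either library had 50 or more counts, and Ghr, Insr, Irs1, and Irs2. The values of 1 gene that met this rule are not reported here, and it stays in the counts of its list. Markers were counted by list. Alternatives were scaling factors of edgeR 4.0.16 (TMM) and DESeq2 1.42.0 (R 4.3.3, rounded counts), upper quartile scaling, totals that leave out the 50 top genes, other filters, a 2-fold limit, and the length of the deposited transcript. Protein sequences were not used here.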

Additional observations from a re-analysis of the deposited data

Results flagged for a closer look

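For 3 members, the log2 ratios of the same contrast had opposite signs in the 2 settings in which it was made, with both counting intervals apart from 0. Other members had opposite signs with an interval that included 0. Since each setting had 1 library per side, none of these differences was tested. The obesity log2 ratio of Igfbp3 was 0.11 in GRf/f and -0.14 in GRmKO mice, a difference of -0.25, and its sign in GRmKO mice flipped with the scaling. The obesity log2 ratio of Igfbp5 was -0.06 in GRf/f and 0.55 in GRmKO mice, a difference of 0.61, and its sign in GRf/f mice flipped with the scaling. The log2 ratio of Igfbp7 for loss of muscle GR was 0.19 in lean and -0.31 in ob/ob mice, a difference of -0.50, with the same signs in 5 of 5 scalings. In those same comparisons, the marker medians were 0.20 and -0.14 for endothelial, 0.28 and -0.58 for macrophage, and 0.21 and -0.55 for fibroblast markers. They were 0.40 and -0.25 for satellite cell, 0.35 and -0.19 for Schwann cell, and 0.01 and -0.29 for pericyte and smooth muscle markers. Myofiber medians were -0.05 and 0.05, and those of slow fiber, adipocyte, tendon cell, and erythroid markers kept their sign. The part of these lists in the difference was not tested.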

How the results depend on the processing

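No paired analysis was possible because each group is 1 library without a replicate number, and for the same reason no library could be left out. Over 5 scalings, 29 of 36 log2 ratios of the members had the same direction, 7 flipped, and 0 of those past 1.5-fold reversed. At 2-fold, obesity changed 0 members in GRf/f and 1 in GRmKO mice, and loss of muscle GR changed 0 in ob/ob mice. The median of the members with obesity in GRf/f mice was 0.0491 with TMM factors and 0.0600 with DESeq2 size factors. In GRmKO mice it was 0.0607 and 0.0700 with these and -0.0028 with upper quartile scaling. Obesity in GRmKO mice changed 0 members higher and 4 lower in CPM, 2 higher and 3 lower with each of these 3 scalings, and 1 higher and 3 lower without the 50 most abundant genes. Igf2 in GRf/f mice (0.83 to 0.95) and, between ob/ob libraries, Igfbp5 (0.74 to 0.78) and Igfbp6 (-0.86 to -0.81) passed 1.5-fold in 5 of 5 scalings. Without a filter, 6727, 7099, 5744, and 5296 features passed 1.5-fold in the 4 comparisons, against 3482, 4512, 2445, and 2959 in the main analysis and 2339, 3335, 1350, and 1844 with at least 10 counts in every library. Among features with a mean of at least 500 counts, a limit added after the data had been seen, 501, 852, 171, and 343 passed. Counting intervals say nothing of the spread between mice or of library preparation.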
